A study of Mus musculus with 10 samples.

Results

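DUSP4, DUSP5, DUSP6, SPRY2, SPRY4, SPRED1, SPRED2, ETV4, ETV5 and PHLDA1 are genes that cells switch on when the ERK kinases are active. They were found by symbol in the identifier column of the authors' deposited table, where they are 10 of 35395 listed genes, and all 10 had a row in each of its 4 comparisons. ERK is the last kinase of a relay that runs from growth factor receptors through RAS, RAF and MEK. Its activity is short-lived in most cells because some of the genes it induces shut the relay down again. Dual-specificity phosphatases (DUSP genes) take the activating phosphates off ERK, Sprouty (SPRY) and SPRED proteins act higher up, near RAS and RAF, and the ETS factors ETV4 and ETV5 carry the signal on to further genes. In fat, ERK lies downstream of insulin and the insulin-like growth factors and is known for its part in the growth and differentiation of fat cell precursors.

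The labels describe RNA sequencing of epididymal white fat of male C57BL/6 mice in 10 samples. The 2 Ad-IGF2 samples are from mice made obese by diet, whose fat pads were injected 2 times a week for 4 weeks with an adenovirus that carries IGF2 behind a CMV promoter, and the 3 Ad-GFP samples are from obese mice given the GFP adenovirus. The 2 IGF2-RNAi samples are from mice given a lentivirus with a hairpin against IGF2 by tail vein at 3 to 4 weeks of age, and the 3 NC-RNAi samples are from mice given the control lentivirus. Neither vector is described as limited to fat cells. All 35395 identifiers in the authors' deposited table are human and 0 of them are mouse identifiers, and its 4 comparisons carry no names, so none could be tied to these groups. Nothing below is therefore an effect of IGF2 or a statement about mouse fat.

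The table rests on 8 libraries in 4 sets of 2, called here the second and the first numerator set and the second and the first reference set. The first comparison sets the first numerator set over the first reference set, and the second comparison sets it over the second reference set. The third and the fourth comparison set the second numerator set over the first and over the second reference set. The third and the fourth comparison therefore share their numerator libraries and do not count as independent of each other. Library 1 of a set is the one with the larger size factor. Size factors on a common scale ran from 0.670 to 1.53, and base means summed to between 14705083 and 20065481 per comparison in the authors' deposited table. The labels mention 2 sequencing replicates per group, and nothing says that the libraries of a set came from separate animals or cultures. The p-values then measure only the spread between these libraries, which may be technical. No adipocyte marker of the 8 looked up, ADIPOQ, PLIN1 and LEP among them, reached 2 CPM in any comparison, where CPM is the base mean per 1000000 of the summed base means. The highest adipocyte base mean was 8.38 normalised reads in the authors' deposited table.

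By the authors' deposited table DUSP4 was 4.01- and 3.47-fold lower, DUSP5 2.80- and 2.89-fold higher and PHLDA1 2.01- and 1.60-fold lower in the second numerator set than in the first and the second reference set. DUSP6 had hardly any reads in the 8 libraries. SPRY4 was also higher and SPRY2 and SPRED2 lower in the second numerator set in at least 1 comparison, while SPRED1, ETV4 and ETV5 passed no test. In the authors' deposited table, called at an adjusted p under 0.05, 6 of the 10 members were called in the third comparison and 4 of 10 in the fourth. Over all genes tested, 30.9% were called in the third comparison and 34.7% in the fourth, and among genes of at least 2 CPM, which 9 of the 10 members reached, 43.6% and 47%. The selection stated in the labels, a log2 fold change over 1 in size with an unadjusted p under 0.05, took 13.6% and 16.9% of all genes, and 3 and 2 members. The members called by adjusted p are 2 higher and 4 lower in the third comparison, where 14.8% of all tested genes were higher and 16.1% lower. They are 2 higher and 2 lower in the fourth, where 17.2% were higher and 17.5% lower. No member was called in the first comparison, with 0.0516% of all genes called, nor in the second, with 0.82% called. Unadjusted p under 0.05 was reached by 0, 0, 6 and 4 members in the first to the fourth comparison per the authors' deposited table.

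The median member stood at a log2 fold change of -0.17 in the third comparison and of -0.06 in the fourth, against 0.09 and 0.08 over all genes tested in the authors' deposited table. In the first and the second comparison the median member stood at -0.00 and 0.25, against 0.01 and 0.02 over all genes. The median gene of at least 2 CPM stood at -0.16 and -0.15 in the third and the fourth comparison. Member changes are therefore also given relative to that shift. Centring on it turned the shares of all genes to 18.1% higher and 11.4% lower in the third comparison, and to 20.2% higher and 13.5% lower in the fourth.

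DUSP4 encodes a phosphatase that sits in the nucleus and acts on ERK and on related kinases. It had 1663 and 1589 normalised reads in libraries 1 and 2 of the second numerator set, against 8308 and 5603 in the first numerator set, 5719 and 5298 in the second reference set and 6614 and 6442 in the first reference set, as worked out from the authors' deposited table. Both second numerator libraries lay below the other 6, and the first numerator libraries overlapped both reference sets. In the third comparison per the authors' deposited table DUSP4 fell by 2.01 on the log2 scale (SE 0.14, adjusted p = 5.46e-42), a 4.01-fold difference. In the fourth it fell by 1.80 (SE 0.17, the authors' adjusted p = 3.37e-24). Relative to the shift of the median gene these log2 fold changes were -1.85 and -1.65. DUSP4 was not called in the first comparison (0.09, SE 0.33) or in the second (0.34, SE 0.34) of the authors' deposited table.

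DUSP5, the phosphatase that binds ERK in the nucleus and is highly selective for it, stood the other way round. It had 2197 and 2074 normalised reads in the second numerator set, against 771 and 680 in the first numerator set, 740 and 704 in the second reference set and 716 and 809 in the first reference set, as worked out from the authors' deposited table. The other 3 sets overlapped one another, and both second numerator libraries lay far above them. DUSP5 rose by 1.49 on the log2 scale in the third comparison per the authors' deposited table (SE 0.17, adjusted p = 6.90e-17) and by 1.53 in the fourth (SE 0.19, adjusted p = 8.96e-15). Relative to the median gene the log2 fold changes were 1.64 and 1.68. Its log2 fold changes in the first and the second comparison per the authors' deposited table were -0.07 (SE 0.33) and 0.01 (SE 0.34), with no call. A pseudogene copy, DUSP5P1, had base means of only 6.01 to 33.4 normalised reads and was called in no comparison, and how reads shared by the copies were counted is not given in the sources used here.

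DUSP6, the cytoplasmic ERK phosphatase and in many tissues the best known feedback target, was at the limit of detection. It had 5 and 4 whole reads in the second numerator set, against 20 and 8 in the first numerator set, 5 and 5 in the second reference set and 9 and 4 in the first reference set, 60 reads in all. On the common scale these are 6.06 and 5.97 normalised reads, against 13.1 and 10.0, 6.24 and 6.33, and 8.61 and 4.90 in the sets in the same order. The log2 fold changes in the first to the fourth comparison per the authors' deposited table were 0.77, 0.88, -0.17 and -0.10, with SEs of 1.25, 1.26, 1.47 and 1.45. None was called, and differences of several fold in either direction were not detectable at this depth. The 95% interval in the third comparison per the authors' deposited table ran from -3.05 to 2.70 on the log2 scale.

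**Figure D1:**
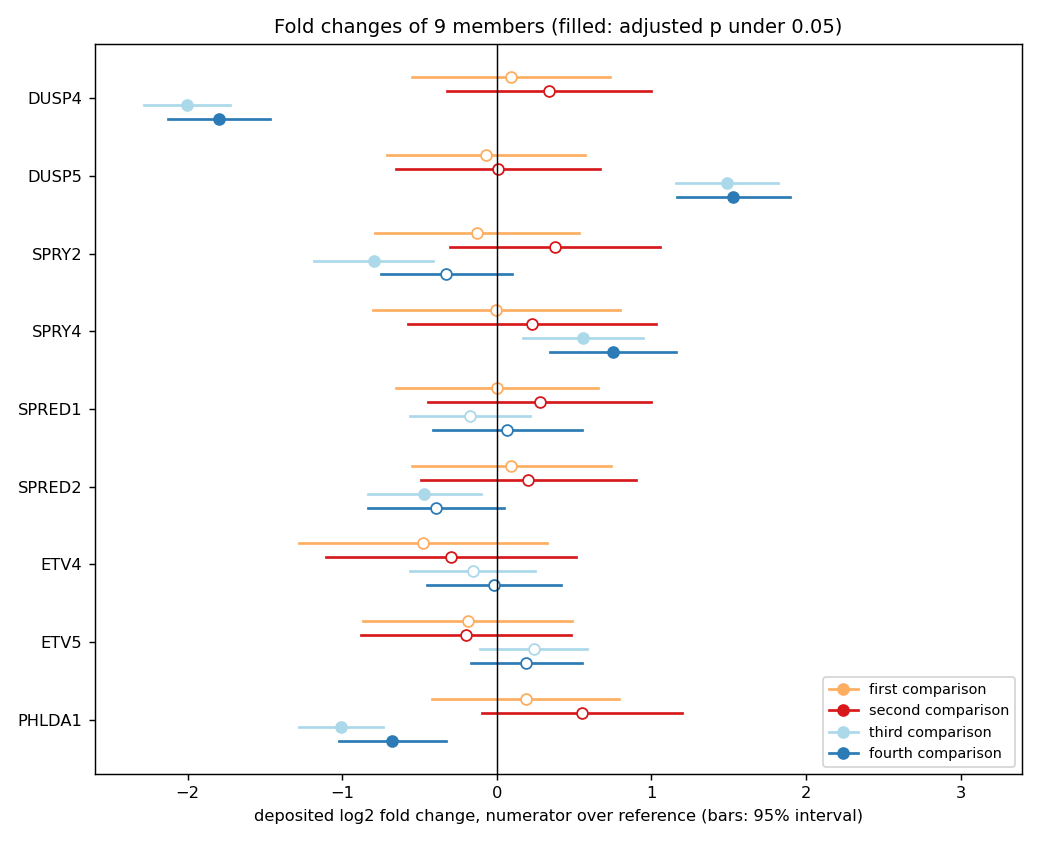
Log2 fold changes (horizontal axis, numerator over reference) of the 9 members above 2 CPM in the 4 comparisons of the authors' deposited table, with 95% intervals as bars and filled points for an adjusted p under 0.05. DUSP4, PHLDA1, SPRY2 and SPRED2 lie left of 0 and DUSP5 and SPRY4 right of 0 where filled, and all points of the first and the second comparison are open.

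The Sprouty genes SPRY2 and SPRY4, whose products damp signalling between receptors and RAS, moved in opposite directions in the third comparison. SPRY2 had 697 and 640 normalised reads in the second numerator set, against 1201 and 926 in the first numerator set, 911 and 728 in the second reference set and 1017 and 1309 in the first reference set. Its second numerator libraries were the lowest of the 8, though the nearest second reference library was only slightly higher. SPRY2 fell by 0.80 in the third comparison per the authors' deposited table (SE 0.20, adjusted p = 0.000407). In the fourth its log2 fold change was -0.33 (SE 0.22, the authors' adjusted p = 0.251), with a 95% interval from -0.75 to 0.10. Without library 1 of the second reference set this value was -0.17, and without library 2 of that set it was -0.47. Relative to the median gene the third comparison gave -0.64, which passed as well (adjusted p = 0.00620 with the authors' errors). The difference between the third and the fourth comparison of SPRY2 was -0.47 (SE at most 0.29, adjusted p = 0.577 with the authors' errors) and did not pass.

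SPRY4 had 1558 and 1653 normalised reads in the second numerator set, against 712 and 1468 in the first numerator set, 1072 and 790 in the second reference set and 900 and 1284 in the first reference set, as worked out from the authors' deposited table. Its second numerator libraries were the highest of the 8, but the first numerator libraries lay so far apart that one of them came close. SPRY4 rose by 0.56 in the third comparison per the authors' deposited table (SE 0.20, adjusted p = 0.0185) and by 0.75 in the fourth (SE 0.21, adjusted p = 0.00158). Relative to the median gene these were 0.71 and 0.90. One library of the reference set weighed on the third value: the log2 ratio was 0.32 without library 1 of the first reference set and 0.84 without library 2. An antisense gene, SPRY4-AS1, fell by 2.37 in the third comparison per the authors' deposited table (SE 0.84, adjusted p = 0.0189) at a base mean of 20.1 normalised reads. In the fourth comparison it stood at -1.43 (SE 1.01, the authors' adjusted p = 0.286) and was not called. Whether the counting used strand is not given in the sources used here, so reads of the pair where the genes overlap cannot be told apart.

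SPRED1 and SPRED2 encode membrane proteins related to Sprouty, and SPRED1 is known for bringing the RAS inhibitor neurofibromin to the membrane. SPRED2 had 730 and 774 normalised reads in the second numerator set, against 982 and 1243 in the first numerator set, 1127 and 803 in the second reference set and 961 and 1123 in the first reference set. The second numerator libraries were the lowest, by a narrow margin over 1 second reference library. SPRED2 fell by 0.47 in the third comparison per the authors' deposited table (SE 0.19, adjusted p = 0.0403), the weakest call among the members. That call was lost when centred on the median gene (-0.31, adjusted p = 0.210) and when the authors' p-values were adjusted over every gene (adjusted p = 0.0585). In the fourth comparison per the authors' deposited table SPRED2 stood at -0.39 (SE 0.22, adjusted p = 0.168). This value was -0.14 without library 1 of the second reference set and -0.61 without library 2. SPRED1 had 1385 and 1267 normalised reads in the second numerator set, against 1426 and 1572, 1569 and 906, and 1232 and 1766 in the first numerator, second reference and first reference set. The libraries of SPRED1 overlapped in all 4 comparisons, and its log2 fold changes in the authors' deposited table were -0.18 (SE 0.20) in the third and 0.07 (SE 0.25) in the fourth comparison. Leaving out 1 library turned its sign, to 0.11 in the third without library 2 of the first reference set and to -0.26 in the fourth without library 2 of the second.

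ETV4 and ETV5, the ETS factors on the output side of the pathway, passed no test in any comparison. ETV5 had 2530 and 2398 normalised reads in the second numerator set, against 1508 and 2160 in the first numerator set, 2309 and 1908 in the second reference set and 1790 and 2391 in the first reference set. The second numerator libraries were the highest of the 8, by a few reads over 1 first reference library. The log2 fold changes of ETV5 were 0.24 (SE 0.18, adjusted p = 0.332) and 0.19 (SE 0.18, adjusted p = 0.457) in the third and the fourth comparison per the authors' deposited table. The 95% intervals of ETV5 ran from -0.11 to 0.58 and from -0.17 to 0.55. The third value was 0.04 without library 1 of the first reference set and 0.46 without library 2. The fourth was 0.32 without library 1 of the second reference set and 0.07 without library 2. ETV4 had 602 and 679 normalised reads in the second numerator set, against 337 and 691 in the first numerator set, 587 and 674 in the second reference set and 644 and 783 in the first reference set. Its libraries overlapped in the third and the fourth comparison, and the authors' deposited table gave log2 fold changes of -0.16 (SE 0.21) against the first reference set and -0.02 (SE 0.22) against the second. Without 1 library ETV4 ran from -0.29 to -0.01 in the third comparison (lowest without library 1 and highest without library 2 of the first reference set) and from -0.12 to 0.10 in the fourth (likewise for the second). The direction of ETV4 turned when centred on the median gene, to 0.00063 in the third comparison and to 0.13 in the fourth.

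PHLDA1, a small protein with a pleckstrin homology-like domain whose transcript is widely read as a sign of ERK activity, was lower in the second numerator set, as DUSP4 was. It had 10478 and 9204 normalised reads in the second numerator set, against 25626 and 19356 in the first numerator set, 17071 and 13630 in the second reference set and 19786 and 19737 in the first reference set, as worked out from the authors' deposited table. Both second numerator libraries were below the other 6, and the second reference set came next. PHLDA1 fell by 1.01 in the third comparison per the authors' deposited table (SE 0.14, adjusted p = 1.33e-11) and by 0.68 in the fourth (SE 0.18, adjusted p = 0.000868). Relative to the median gene the log2 fold changes were -0.85 and -0.53, both called. In the second comparison per the authors' deposited table PHLDA1 stood at 0.55 (SE 0.33, unadjusted p = 0.0950, adjusted p = 0.651), the smallest p of any member in the first and the second comparison.

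Libraries on the 2 sides of a comparison did not overlap for 7 of 10 members in the third comparison and 8 of 10 in the fourth, where DUSP6 was 1 of the 8 with 4 or 5 reads a library. Among 5712 genes with a base mean of 400 to 2000 normalised reads in the first comparison, 79.8% and 79% were likewise free of overlap. In the first comparison 1 member, DUSP6, had no overlap, and in the second 3 had none, DUSP6, SPRY2 and PHLDA1, against 31.8% and 46.8% of those genes. The members' shares in the third and the fourth comparison were close to these backgrounds. DUSP4, DUSP6 and PHLDA1 lay outside that range of levels, at base means of 6742, 9.14 and 21126 in the first comparison.

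Whether a member differed between the numerator sets themselves was tested by the difference of the third and the first comparison, which share their reference libraries. DUSP4 was lower in the second than in the first numerator set, with a log2 difference of -2.10 (SE at most 0.36, adjusted p = 1.26e-06 with the authors' errors, 4.28-fold). DUSP5 was higher by a log2 difference of 1.56 (SE at most 0.37, adjusted p = 0.00162, 2.94-fold), and PHLDA1 differed by -1.19 (SE at most 0.34, adjusted p = 0.0143, 2.29-fold), likewise with the authors' errors. These Wald tests used the deposited errors with Benjamini-Hochberg adjustment over 12784 genes of at least 2 CPM, of which 5.72% were called, against 3 of 9 members. The fourth minus the second comparison called the same 3 members and 4.86% of genes, and centring called them with 5.3% of genes. That difference sets the same numerator libraries against each other and is no independent test. The other 6 members did not pass. By the authors' errors SPRY2 had a log2 difference of -0.67 (95% interval -1.43 to 0.10, adjusted p = 0.358), SPRED2 one of -0.56 (-1.30 to 0.18, adjusted p = 0.451) and SPRY4 one of 0.56 (-0.33 to 1.45, adjusted p = 0.559). Differences of ETV5, ETV4 and SPRED1 were 0.43 (-0.33 to 1.18), 0.32 (-0.58 to 1.22) and -0.18 (-0.94 to 0.59).

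**Figure D2:**
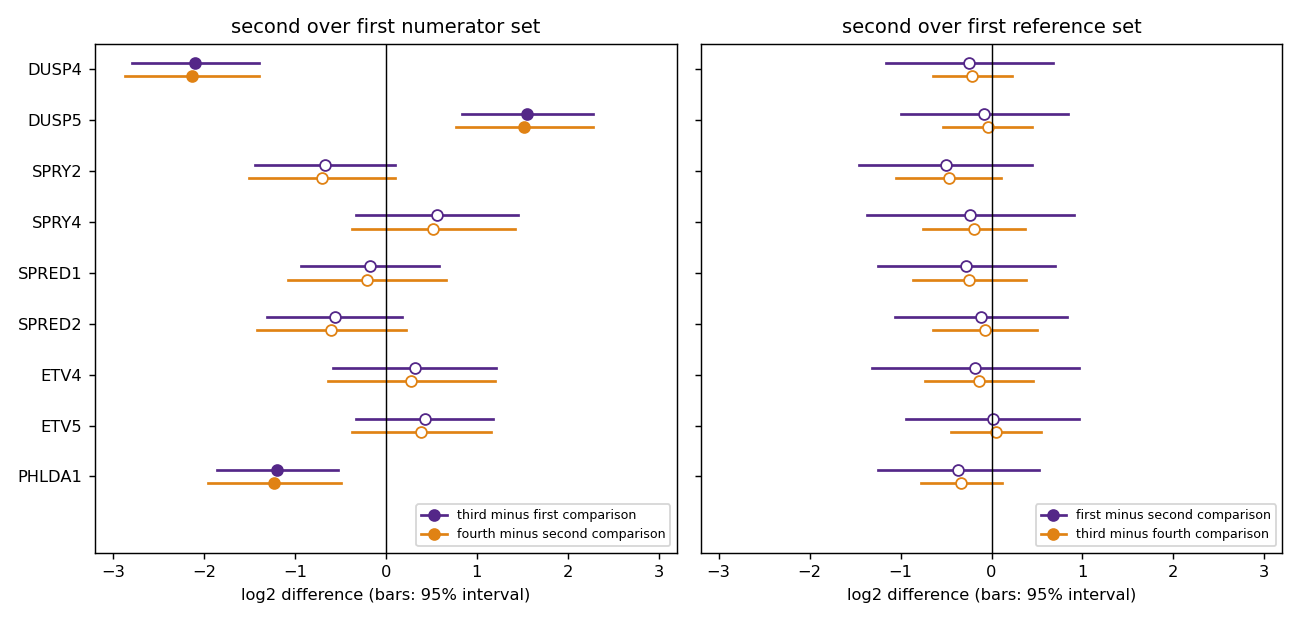
Log2 differences (horizontal axis) of the 9 members above 2 CPM between the second and the first numerator set (left) and between the second and the first reference set (right), each derived from 2 pairs of comparisons, with 95% intervals as bars and filled points for an adjusted p under 0.05. Only DUSP4, DUSP5 and PHLDA1 are filled on the left, from either pair, and none on the right. Both pairs of a panel compare the same libraries and are not independent.

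Between the reference sets no member passed. Differences of the first and the second comparison ran from -0.50 for SPRY2 to 0.01 for ETV5, with no unadjusted p under 0.05, and 0.148% of 12856 genes were called, or 0.132% when centred. The difference of the third and the fourth comparison sets the same reference libraries against each other, with smaller errors. It called 0 of 9 members as well, also with none under 0.05 unadjusted, against 2.07% of 13358 genes. There the members ran from -0.47 for SPRY2 to 0.05 for ETV5. For DUSP4 the interval ran from -0.64 to 0.22, for DUSP5 from -0.53 to 0.45 and for PHLDA1 from -0.77 to 0.11.

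The precision of the 4 comparisons was unequal, and the first numerator set was the least even. The median gap between the 2 libraries of a set over 5712 genes was 0.158 log2 units in the second numerator set, 0.364 in the first numerator set, 0.241 in the second reference set and 0.161 in the first reference set. Gaps above 0.5 were found for 3.78%, 35.9%, 14.4% and 7.20% of these genes in the same order, and for 0, 3, 1 and 2 of the 7 members in that range of levels. In the first numerator set library 1 was lower than library 2 by 1.04 log2 units for both SPRY4 and ETV4, a gap that 10.2% and 10.3% of genes reached or passed. DUSP4 was 0.57 higher in library 1 of that set. In the second reference set SPRED1 was 0.79 higher in library 1, a gap reached by 2.42% of genes.

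Among the 9 members above 2 CPM the log2 fold changes ran from -0.48 for ETV4 to 0.19 for PHLDA1 in the first comparison and from -0.30 for ETV4 to 0.55 for PHLDA1 in the second, per the authors' deposited table. Leaving out 1 library moved several of these values. ETV4 in the first comparison stood at -1.08 without library 2 of the first numerator set and at -0.05 without library 1, and SPRY4 at -0.62 and 0.43. Among the members above 2 CPM the SE ran from 0.31 to 0.41 in the first comparison per the authors' deposited table and from 0.14 to 0.21 in the third.

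**Figure D3:**
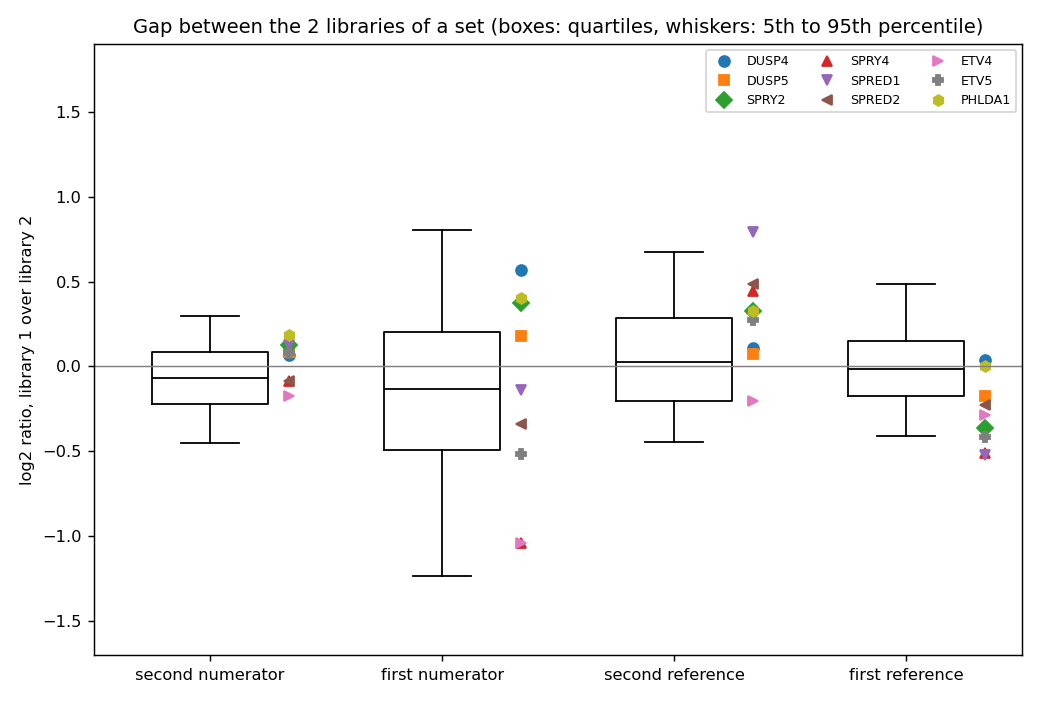
Log2 ratio of library 1 over library 2 (vertical axis) within each of the 4 sets, as boxes for 5712 genes (quartiles, with whiskers at the 5th and 95th percentile) and as symbols for the 9 members above 2 CPM. The box of the first numerator set is the widest, and SPRY4 and ETV4 lie near -1.04 there.

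Other genes of the ERK pathway were looked up in 4 lists chosen by role, upstream genes in 2 of them and relatives and outputs in the others. In none of them was any gene called in the first or the second comparison per the authors' deposited table. Of 18 genes of the cascade core, from RAS and its regulators to ERK, 2 passed as higher and 7 as lower in the third comparison, with 30.9% of all genes called, and 3 as higher and 4 as lower in the fourth, with 34.7% called. All 18 were above 2 CPM, and among genes of that level 43.6% and 47% were called. The core's medians were -0.23 and 0.02 log2 units. Centred on the median gene, with 29.4% and 33.7% of all genes called, the core had 2 higher and 2 lower genes in the third comparison, and 4 higher and 3 lower genes in the fourth. RASA1, a GTPase-activating protein that turns RAS off, fell by 0.88 (SE 0.17, adjusted p = 2.46e-06) and by 1.36 (SE 0.22, adjusted p = 8.03e-09) in the third and the fourth comparison per the authors' deposited table. The RAF kinases ARAF and BRAF parted: ARAF fell by 0.61 in the third comparison (SE 0.17, adjusted p = 0.00183), with -0.47 (SE 0.20, adjusted p = 0.0572) in the fourth, while BRAF rose by 0.57 (SE 0.18, adjusted p = 0.00591) and 1.29 (SE 0.22, adjusted p = 3.79e-08) in the authors' deposited table.

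Among 17 tested receptors and ligands, 3 rose while 5 fell in the third comparison, and 3 rose while 4 fell in the fourth, with medians of 0.30 and 0.05. These 8 and 7 called genes stand beside the 30.9% and 34.7% called over all genes. Among genes of at least 2 CPM, which 13 of the 18 listed reached, 43.6% and 47% were called. Centred on the median gene, 4 were higher and 5 lower in the third comparison, and 3 were higher and 4 lower in the fourth. Over all genes, centring called 29.4% and 33.7%. TGFA, a ligand of the EGF receptor, stood at -1.56 (SE 0.15) in the third and -1.73 (SE 0.21) in the fourth comparison on the log2 scale, per the authors' deposited table. ERBB2, a co-receptor of the same family, had -1.48 (SE 0.19) and -1.17 (SE 0.20), and KIT, the receptor of stem cell factor, had -3.14 (SE 0.44) and -3.21 (SE 0.46) at a base mean of 100.4 normalised reads in the third. All 3 were called in both comparisons, with adjusted p of at most 1.05e-07.

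Relatives of the members moved in both directions. Of 15 tested relatives in the third comparison 5 rose and 3 fell, and of 14 in the fourth 3 rose and 3 fell, with the medians at 0.42 and 0.08 by the authors' deposited table and 30.9% and 34.7% of all genes called. Among genes of at least 2 CPM, which 13 of the 16 listed relatives reached, 43.6% and 47% were called. PHLDA2, the paralogue of PHLDA1, rose by 1.29 (SE 0.16) and 1.23 (SE 0.19), where PHLDA1 itself fell. IER3, an immediate early gene that prolongs ERK phosphorylation, fell by 1.34 (SE 0.20) and by 1.91 (SE 0.18), and ETV1, the third factor of the ETV4 and ETV5 family, fell by 1.22 (SE 0.32) and by 1.21 (SE 0.33). Each of these 6 values was called, with adjusted p of at most 0.00113 in the authors' deposited table. Centring on the median gene raised the third comparison's count of relatives to 8 higher and 2 lower and left 3 higher and 2 lower in the fourth.

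Among 10 other output genes, 4 rose while 3 fell in the third comparison, and 3 rose while 1 fell in the fourth. Their medians were 0.06 and 0.02, with the same background shares of 30.9% and 34.7%. All 10 were above 2 CPM in both comparisons, and among genes of that level 43.6% and 47% were called. FOS, the immediate early AP-1 factor, was at 201.3 normalised reads in the second numerator set against 8.25 in the first reference set, a log2 fold change of 4.61 (SE 0.50, adjusted p = 4.08e-18) in the authors' deposited table. In the fourth comparison FOS had 4.25 (SE 0.51, the authors' adjusted p = 7.48e-15). EPHA4, an ephrin receptor, rose by 2.15 (SE 0.25) and 2.99 (SE 0.26), with the authors' adjusted p of 1.91e-15 and 3.91e-29. CCND1, the cyclin that links ERK to the cell cycle, fell by 0.57 in the third comparison (SE 0.13, adjusted p = 0.000108) and stood at -0.29 in the fourth (SE 0.16, adjusted p = 0.150) of the authors' deposited table. Centred on the median gene, 5 output genes were higher and 1 lower in the third comparison and 4 higher and 1 lower in the fourth.

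**Figure D4:**
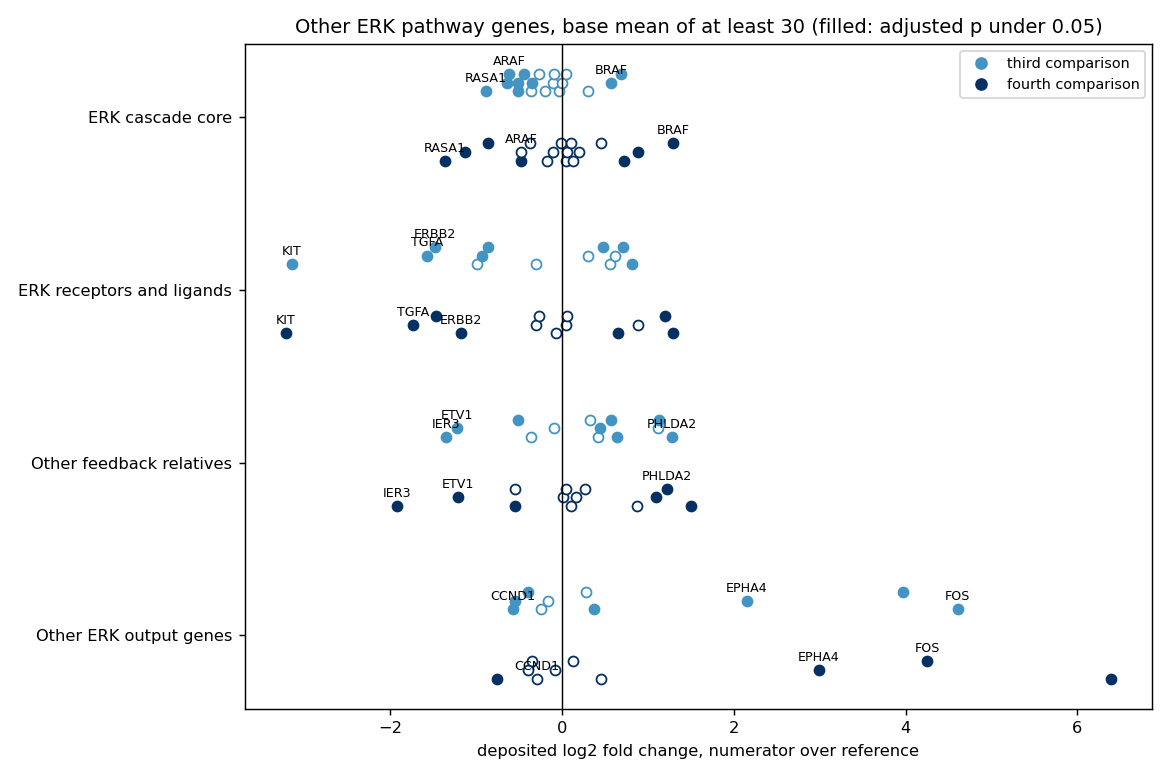
Log2 fold changes (horizontal axis, numerator over reference) of other ERK pathway genes (base mean of 30 normalised reads or more) in the third (light) and the fourth (dark) comparison per the authors' deposited table, by list; filled points have an adjusted p under 0.05, and small vertical offsets only separate points. Every list has filled points on both sides of 0, with KIT near -3 and FOS above 4.

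Genes that mark other cell types had few reads, and some macrophage markers were called in the third and the fourth comparison. Macrophage markers summed to 277.7 normalised reads in the second numerator set against 139.6 in the first reference set in the third comparison, and to 255.1 against 140.8 in the second reference set in the fourth. Of the 6 markers 5 were tested, of which 2 were called higher in the third comparison and 3 in the fourth of the authors' deposited table, where 14.8% and 17.2% of all tested genes were higher. The median log2 fold changes of the tested markers were 0.74 and 1.41. CD163 had log2 fold changes of 5.24 and 5.43, far above these medians, and C1QA had no row. Base means of the macrophage markers were low, from 8.31 to 76.5 normalised reads in the third comparison and from 8.10 to 86.7 in the fourth. Adipocyte markers summed to 37.9 against 7.18 and to 34.6 against 18.01 normalised reads, with PLIN1 alone called, in the fourth comparison. Endothelial markers summed to 53.1 against 42.5 and to 48.2 against 37.3, with VWF alone called, in the third comparison. In the first comparison the sums of the first numerator and the first reference set were 240.8 and 168.6 for macrophage markers, 12.3 and 8.63 for adipocyte markers and 109.8 and 51.4 for endothelial markers, with none called. In the second comparison the first numerator and the second reference set had 224.1 and 168.7, 11.1 and 21.2, and 101.8 and 44.9 for the same lists, again with none called. Their part in the members' values was not tested, and in bulk samples fewer cells of a type cannot be told apart from less RNA per cell.

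Among 11925 genes of at least 2 CPM in every comparison, FAHD2A, SLC38A2, SCN2A and CD99L2 were 4 of the 5 whose log2 fold changes in the 4 comparisons lay nearest to those of DUSP6. Their Euclidean distances were 0.0947, 0.172, 0.188 and 0.189 log2 units over 4 comparisons of 8 libraries, but the DUSP6 values rest on 60 reads. Likeness to DUSP4 and DUSP5 was looked up after their values had been seen. ZMYM3, COL13A1 and DGKA lay nearest to DUSP4, at 0.212, 0.284 and 0.299, and ZNF222, DMPK and JMJD6 nearest to DUSP5, at 0.125, 0.131 and 0.135. ZMYM3 had log2 fold changes of -1.99 and -1.66 in the third and the fourth comparison per the authors' deposited table, and ZNF222 had 1.56 and 1.52.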

How the data were processed

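The submitters' single table holds 4 unnamed comparisons of 7 columns each. Per the file headers these are a gene identifier and symbol, the base mean, the log2 fold change with its error, the Wald-type statistic (a score), the p-value and the adjusted p, all as the authors deposited them. Sequencing was by a commercial service, per the labels; aligner, counter, build and strand setting: not given in the sources used here. No column holds a named sample, and depth is known only through base means. The fold changes, errors and p-values are the authors' own, and no count model was refitted.

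Rows with few reads gave each library's size factor. With these factors 100% of 5954 to 6403 such rows per comparison were whole reads, within an absolute tolerance of 1e-12 (4e-09 in the second comparison). The factors were chosen to make this share largest. Whole reads per library were then searched so that the base means of all 4 comparisons were met. All 10 members and 5713 of 5713 genes with base means of 400 to 2000 had 1 solution, and member fold changes recomputed from these reads were within 0.0036 log2 units of the deposited ones (0.0075 for DUSP6). The search kept the set means of the first comparison near those derived from its deposited fold changes. Agreement in that comparison was therefore partly fixed in advance. The common scale is that of the first comparison, and closing the circle of shared libraries left a gap of -2.43%. CPM is the base mean per 1000000 of summed base means. The search was tested on simulated data at the levels of the members other than DUSP4 and PHLDA1. Those 2 were searched in a narrower window (0.3% against 2%) that was not simulated. The members and lists were chosen with earlier results of these data known. Named genes are all members, the 3 genes of each list with the smallest p in the third comparison among those of at least 2 CPM, and the 5 genes nearest to DUSP6, 1 of which is not reported here. Cell type markers, genes that overlap or copy a member, and the genes nearest to DUSP4 and DUSP5 were named outside that rule, after their values had been seen. Differences between comparisons used errors added in squares, an upper limit since shared libraries make the covariance positive. Alternatives were the labels' selection (log2 fold change over 1 in size and p under 0.05), other sets of genes for the adjustment, centring on the median gene of at least 2 CPM and leaving out each library. Python 3.11.15, numpy 2.4.6, pandas 2.3.3, scipy 1.17.1 and matplotlib 3.10.9 were used.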

Additional observations from a re-analysis of the deposited data

Results flagged for a closer look

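In all, 3 of 9 members differed between the numerator sets by a test of the difference itself, the third comparison minus the first. That test called 5.72% of 12784 genes of at least 2 CPM. DUSP4 had a log2 difference of -2.10, with 1663 and 1589 normalised reads in the second numerator set against 8308 and 5603 in the first. DUSP5 had 1.56, with 2197 and 2074 against 771 and 680. PHLDA1 had -1.19, with 10478 and 9204 against 25626 and 19356. The fourth minus the second comparison gave -2.13, 1.52 and -1.23 for the same genes, from the same numerator libraries. It called 4.86% of 12857 genes.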

How the results depend on the processing

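The labels' selection (log2 fold change over 1 in size and unadjusted p under 0.05), which took 13.6% and 16.9% of all genes in the third and the fourth comparison, left 3 members in the third (DUSP4, DUSP5 and PHLDA1) and 2 in the fourth (DUSP4 and DUSP5). The other alternatives gave 5 or 6 members in the third and 4 in the fourth. Centring called 29.4% and 33.7% of all genes in these comparisons. By the deposited adjusted p, 43.6% and 47% of genes of at least 2 CPM were called. Shares of all genes under the other adjustments were not counted. Centring on the median gene turned the sign of 4 uncalled values: SPRY4 in the first comparison to 0.038, ETV4 in the third to 0.00063 and in the fourth to 0.13, and DUSP6 in the fourth to 0.047. Counts of 3 of 9 members between the numerator sets and 0 of 9 between the reference sets held under every alternative run. Shares of all genes called ran from 4.86% to 5.72% between the numerator sets and from 0.132% to 2.07% between the reference sets. For these counts the alternatives were the other pair of comparisons and centring. Both pairs set the same libraries against each other, so their agreement is no independent support. Leaving out single libraries was not run on these differences. Leaving out each library in turn kept the sign of all called members; in the third comparison DUSP4 ran from -2.04 to -1.97, DUSP5 from 1.40 to 1.58, PHLDA1 from -1.10 to -0.92, SPRY2 from -0.97 to -0.61, SPRY4 from 0.32 to 0.84 and SPRED2 from -0.58 to -0.35, and in the fourth DUSP4 from -1.84 to -1.75, DUSP5 from 1.48 to 1.57, PHLDA1 from -0.82 to -0.52 and SPRY4 from 0.56 to 0.97. These values carry no test. The kept sign was fixed in advance, because the libraries of the 2 sides did not overlap for any called member. A standard error of set means solved from the 4 deposited errors was not run, because those do not fix the sum of the variances of the numerator sets. No paired analysis was possible because no column could be tied to a numbered sample. The number of libraries, 2 a set, and 60 reads in all for DUSP6 limit what can be seen.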
